A study of Rattus norvegicus with 16 samples.

Results

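Transcripts of 6 genes of the plasminogen activator system were followed across cell populations sorted from cultures of rat olfactory mucosa, the lining of the nasal cavity that bears the olfactory epithelium. The genes were Plat, Plau, Plaur, Serpine2, Serpinb2 and Serpinf1. They were found by gene symbol among the 26207 genes on the array, were read by 7 of its 30367 probes, and 5 of the 6 passed the filter for measurable signal that left 20571 genes for testing. Serpinb2 did not pass it.

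Cells came from cultures of male Fischer rats, per the labels, and were sorted by flow cytometry. The TRKA-TGF population consisted of TRKA cells conditioned with transforming growth factor alpha. The TRKA, CD90 and p75 populations were grown by a shared culture protocol without that conditioning. Each population had 4 biological replicates with 1 array each, and the labels do not say whether replicates of different populations shared animals, so p-values measure the spread between these samples. The names CD90 and p75 are those of the surface proteins encoded by Thy1 and Ngfr. Cells were sorted in bulk, so fewer cells of a type and less RNA per cell cannot be told apart in any value below.

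Plasminogen is a circulating proenzyme that tissue-type plasminogen activator, encoded by Plat, and urokinase, encoded by Plau, cut into the protease plasmin. Plaur encodes the membrane-anchored receptor that holds urokinase on the cell surface, where leukocytes and other migrating cells use it. Serpins are protease inhibitors that trap their target: Serpine2 encodes glia-derived nexin, an inhibitor of thrombin and of both activators that is known from the rat olfactory system, and Serpinb2 encodes plasminogen activator inhibitor 2, a product of activated macrophages. Serpinf1 encodes pigment epithelium-derived factor, a secreted serpin that does not inhibit proteases and is known for effects on vessels and neurons.

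The probe sequences below are the stretches of transcript on which the levels of Plau, Plaur, Serpinf1 and Serpinb2 rest, and the 2 Plaur probes are shown because they differed in their results. All are copied from the array files in lower case, 5′ to 3′. The array files place the probes on rat build rn4 (RGSCv3.4), whose exons and introns were not used here. The Plau probe (Entrez 25619) lies at chr15:3680711-3680770 on the minus strand, the first Plaur probe (Entrez 50692) at chr1:79712786-79712845 on the plus strand, and the Serpinf1 probe (Entrez 287526) at chr10:62714118-62714177 on the minus strand. The Serpinb2 probe (Entrez 60325) lies at chr13:13640735-13640794 on the plus strand, and no position is given for the second Plaur probe, A_44_P468141.
Plau, probe A_44_P260036: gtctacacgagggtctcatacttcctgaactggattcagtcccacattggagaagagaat
Plaur, probe A_64_P038008: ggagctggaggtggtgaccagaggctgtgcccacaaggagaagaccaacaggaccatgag
Plaur, probe A_44_P468141: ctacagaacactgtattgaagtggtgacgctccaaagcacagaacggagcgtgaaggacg
Serpinf1, probe A_44_P144202: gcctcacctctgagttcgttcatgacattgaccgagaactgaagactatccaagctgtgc
Serpinb2, probe A_44_P104985: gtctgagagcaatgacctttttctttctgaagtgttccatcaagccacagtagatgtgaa

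The Plat probe A_64_P119633 (Entrez 25692) lies at chr16:73711476-73711535 and the Serpine2 probe A_44_P438863 (Entrez 29366) at chr9:79091862-79091921, both on the minus strand of rn4. Every probe was spotted at 2 positions of each array.

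Plau and Plaur, which encode urokinase and its receptor, were both highest in the TRKA populations, so the stretch before the start of each gene is shown. The sequences are the 250 bases before the RefSeq start on build GRCr8, chr15:3511988-3512237 on the minus strand for Plau and chr1:89181113-89181362 on the plus strand for Plaur, read 5′ to 3′ along the gene. Both strands were searched for 3 motifs chosen after the sequences were seen, the GC box (GGGCGG), the AP-1 element (TGANTCA) and an ETS-type element (GAGGAAG), and capitals mark matches to GC box and AP-1. A RefSeq entry was at hand for 5 of the 6 genes, Plat being the exception.
Plau: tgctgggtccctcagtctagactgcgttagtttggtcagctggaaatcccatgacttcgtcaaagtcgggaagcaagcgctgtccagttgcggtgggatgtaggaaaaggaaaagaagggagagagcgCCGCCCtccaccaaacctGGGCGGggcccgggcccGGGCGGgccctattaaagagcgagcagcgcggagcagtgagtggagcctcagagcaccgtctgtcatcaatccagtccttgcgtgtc
Plaur: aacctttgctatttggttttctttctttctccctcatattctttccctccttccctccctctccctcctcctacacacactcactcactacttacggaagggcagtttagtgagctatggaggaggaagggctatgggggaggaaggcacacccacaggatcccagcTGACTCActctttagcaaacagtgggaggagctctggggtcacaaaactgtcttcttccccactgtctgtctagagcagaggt

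The Plau window held 3 GC box matches, 0 AP-1 matches and 0 ETS matches, and the Plaur window 0 GC box matches, 1 AP-1 match and 2 ETS matches. In the windows not shown, that of Serpine2 held 6 GC box matches and 0 AP-1 matches, that of Serpinb2 held 0 and 1, and that of Serpinf1 held 0 of each, all 3 with 0 ETS matches. Of 33469 windows of the same length, 30.5% held a GC box match, 6.34% an AP-1 match and 10.2% an ETS match. The matches in the windows shown do not overlap one another, and they describe these letters only.

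Levels are log2 of the background-subtracted spot intensity minus the 75th percentile of that array's probes, so that 0 is this percentile and each unit is a doubling. TRKA arrays measured fewer transcripts than the others: 51.4 to 57.5% of their spots were well above background, against 66.4 to 72.4% on the arrays of the other 3 populations. The median SD between replicates was 1.08 over all genes in TRKA cells and 0.54 to 0.68 in the others. The TRKA and p75 arrays lay on 1 slide and the TRKA-TGF and CD90 arrays on another, each with its own scan, and within a slide each population filled 1 row. TRKA against p75 and TRKA-TGF against CD90 were therefore compared within a slide but between rows. In the other 4 pairwise comparisons slide and population cannot be told apart.

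Marker genes of other cell types differed between the populations. The summed signal of 10 glial markers, in multiples of the array's 75th percentile, was 2.52 to 2.72 on TRKA-TGF arrays, 0.286 to 0.928 on TRKA arrays, 0.766 to 1.40 on CD90 arrays and 123 to 128 on p75 arrays, with Scn7a not well above background on any array outside p75. That of 10 myeloid markers was 160 to 170 in TRKA-TGF, 316 to 430 in TRKA, 13.5 to 20.9 in CD90 and 2.58 to 5.76 in p75 cells. That of 8 fibroblast markers was 4.33 to 14.7, 106 to 152, 460 to 526 and 195 to 212 in the same order. On TRKA arrays Dcn and Lum were not well above background on any. Col1a1, Col1a2 and Col3a1 were on all 4 (means 6.89, 2.44 and 2.26), Pdgfra on 3, Thy1 on 2 and Postn on 1. Col1a1 was the highest of the 8 there. Thy1 averaged −6.79 in TRKA-TGF, −5.83 in TRKA, 3.44 in CD90 and −1.56 in p75 cells and Ngfr −0.37, −7.35, −5.24 and 3.16 in that order, with Ngfr not well above background on any TRKA array. The part of other cell types in the results below was not tested.

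**Figure D1:**
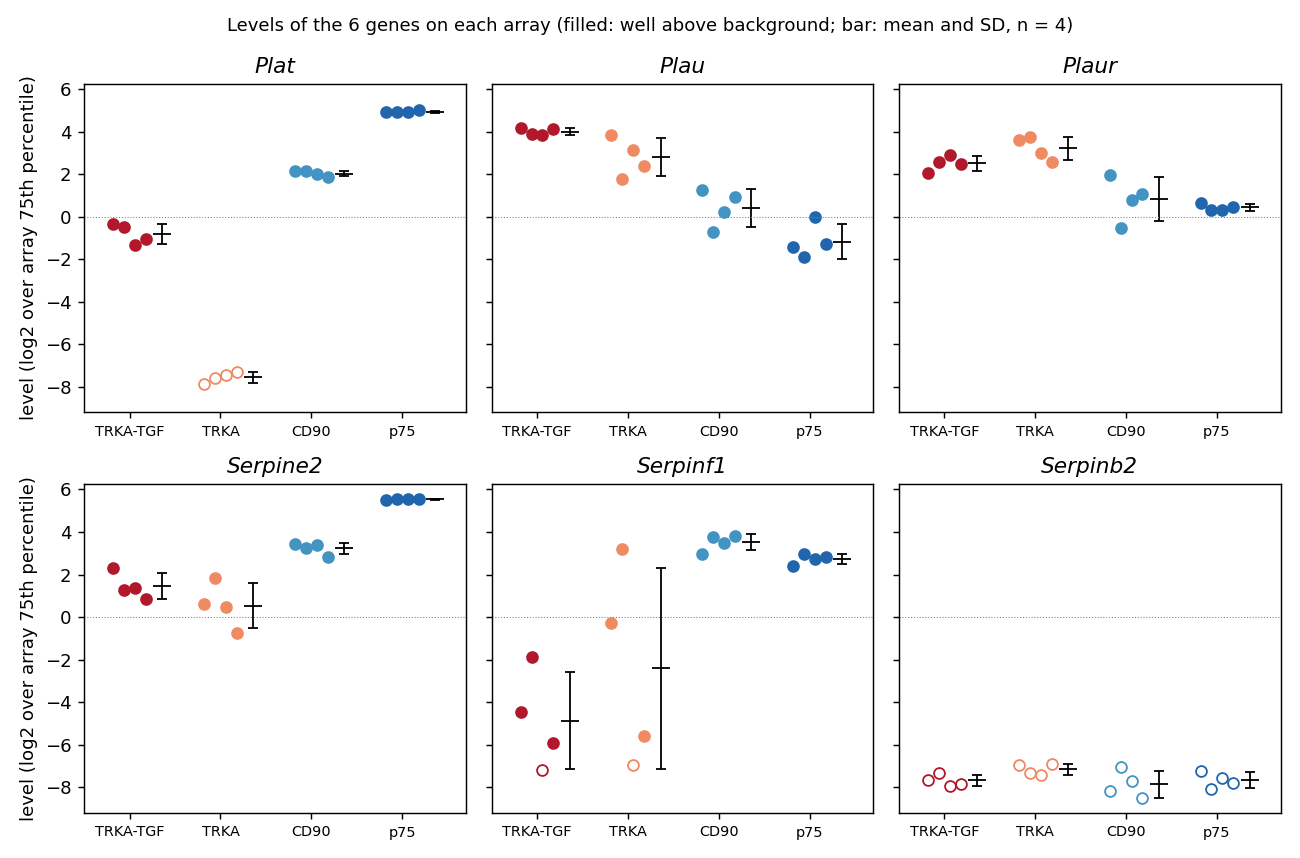
Level of each gene on each of the 16 arrays, as log2 over the array's 75th percentile, with 1 panel per gene and 4 arrays per population. Filled points were well above background, open points were not, and the bar beside each population is the mean with its SD (n = 4). Plat and Serpine2 lie highest in p75 cells and Plau highest in TRKA-TGF cells, while every Serpinb2 point is open.

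Plat, the gene of tissue-type plasminogen activator, separated all 4 populations with no overlap. Its level was −0.35, −0.50, −1.34 and −1.05 on the TRKA-TGF arrays and −7.87, −7.58, −7.45 and −7.28 on the TRKA arrays, where it was not well above background on any. It was 2.13, 2.13, 2.00 and 1.86 on the CD90 arrays and 4.94, 4.90, 4.91 and 5.01 on the p75 arrays. The order from high to low was thus p75, CD90, TRKA-TGF and TRKA, and each step was larger than the spread between replicates. Where a population had no array well above background, a difference is given as a bound, taken from the higher of the probe's own signal and the lowest signal well above background on each array. Plat was at least 54.4-fold higher in TRKA-TGF than in TRKA cells (limma, Benjamini-Hochberg adjusted p = 9.76e-10). Against p75 cells it was at least 2931-fold lower in TRKA (adjusted p = 1.48e-12), and against CD90 cells at least 389-fold lower in TRKA (adjusted p = 8.80e-12). TRKA-TGF cells, although higher than TRKA cells, stayed 5.75 ± 0.25 log2 units (difference ± SE) below p75 cells (adjusted p = 1.69e-09) and 2.84 ± 0.25 below CD90 cells (adjusted p = 2.41e-06). CD90 cells had 7.53-fold less Plat than p75 cells (adjusted p = 3.57e-06). These 6 calls held in every alternative run, but the bounds hold only for the processed signal: with normexp background correction, which adds an offset of 50, the log2 difference was 3.15 in TRKA-TGF against TRKA, −8.74 in TRKA against p75 and −5.83 in TRKA against CD90, each smaller than the bound given. The glial gene Ngfr, like Plat, was well above background on all TRKA-TGF arrays and on 0 TRKA arrays.

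Plau, the urokinase gene, was highest in the TRKA populations and lowest in p75 cells. On the TRKA-TGF arrays its level was 4.15, 3.87, 3.83 and 4.11, and on the TRKA arrays 3.84, 1.79, 3.14 and 2.40. On the CD90 arrays it was 1.28, −0.72, 0.20 and 0.93 and on the p75 arrays −1.44, −1.92, −0.03 and −1.30. All 16 values were well above background, every TRKA-TGF and TRKA array lay above every CD90 and p75 array, and the neighbours TRKA-TGF and TRKA overlapped, as did CD90 and p75. Plau was 15.6-fold higher in TRKA than in p75 cells (log2 difference 3.96 ± 0.53, adjusted p = 5.16e-05 in limma) and 35.9-fold higher in TRKA-TGF than in p75 cells (5.16 ± 0.53, adjusted p = 9.16e-06). It was 11.9-fold higher in TRKA-TGF than in CD90 cells (3.57 ± 0.53, adjusted p = 0.000293). Over CD90 cells, TRKA cells were 5.18-fold higher (2.37 ± 0.53, adjusted p = 0.00292). That last call ended when arrays were scaled on the probes measured on all arrays (1.39, adjusted p = 0.0592).

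Neither neighbouring pair of populations passed the threshold for Plau. TRKA-TGF cells were 1.20 log2 units above TRKA cells (95% interval 0.07 to 2.33, adjusted p = 0.112 in limma). That difference was called under quantile normalization (1.88, adjusted p = 0.0260), with the percentile over probes measured on all arrays (1.96, adjusted p = 0.0167), with the authors' deposited values (1.86, adjusted p = 0.0264) and without TRKA replicate 1 (1.55, adjusted p = 0.0435). CD90 cells were 1.59 above p75 cells (0.46 to 2.72, adjusted p = 0.0956), which was called without CD90 replicate 2 (1.97, adjusted p = 0.0397), without p75 replicate 3 (1.97, adjusted p = 0.0415) and with array weights by group (adjusted p = 0.0395).

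**Figure D2:**
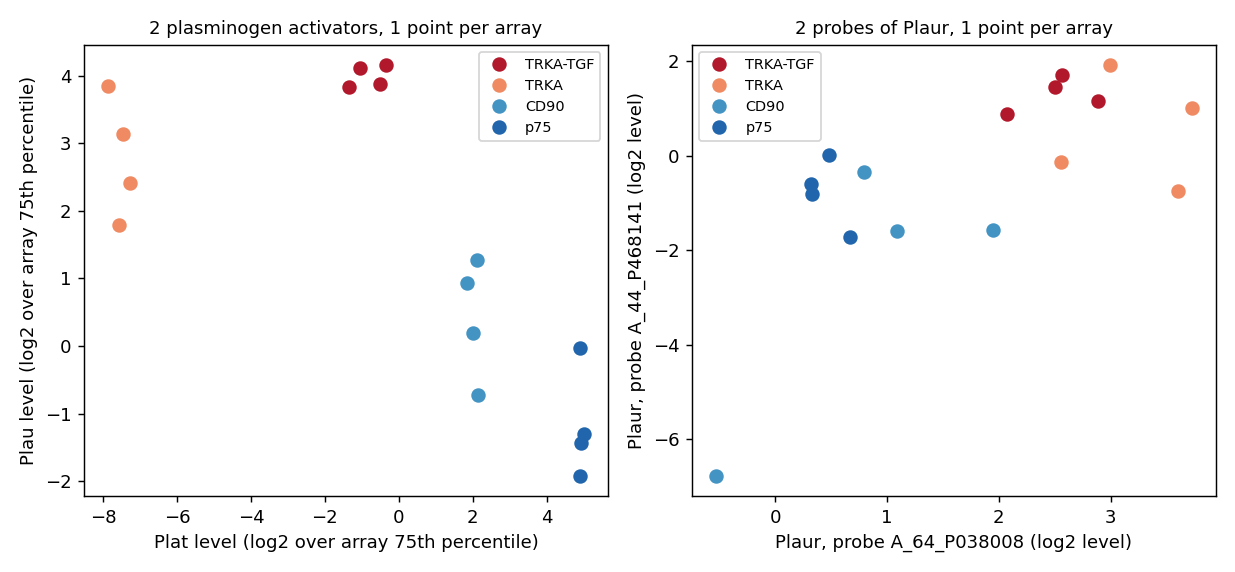
Left, the level of Plau against that of Plat, and right, the level of the Plaur probe A_44_P468141 against that of the probe A_64_P038008, each point being 1 of the 16 arrays and each axis log2 over the array's 75th percentile. The TRKA arrays lie at low Plat and high Plau and the p75 arrays at high Plat and low Plau, and 1 CD90 array lies apart at −6.77 on the Plaur probe A_44_P468141.

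Plaur, the urokinase receptor gene, was also higher in both TRKA populations than in CD90 and p75 cells. By its brighter probe, A_64_P038008, the level was 2.07, 2.56, 2.88 and 2.50 on the TRKA-TGF arrays and 3.60, 3.73, 3.00 and 2.56 on the TRKA arrays. It was 1.95, −0.53, 0.79 and 1.09 on the CD90 arrays and 0.67, 0.32, 0.33 and 0.48 on the p75 arrays. No TRKA-TGF or TRKA array fell as low as the highest CD90 or p75 array, while TRKA-TGF overlapped TRKA and CD90 overlapped p75. TRKA cells were 6.83-fold above p75 cells (2.77 ± 0.44, adjusted p = 0.000224 in limma) and 5.26-fold above CD90 cells (2.40 ± 0.44, adjusted p = 0.000706), the last value being 1.42 with the percentile over probes measured on all arrays. TRKA-TGF cells were 4.16-fold above p75 cells (2.06 ± 0.44, adjusted p = 0.00472) and 3.20-fold above CD90 cells (1.68 ± 0.44, adjusted p = 0.0184). The call against CD90 ended without TRKA-TGF replicate 3 (1.55, adjusted p = 0.0573) and in a fit of these populations alone (adjusted p = 0.0565). The call against p75 ended with the mean of the 2 probes (2.07, adjusted p = 0.0601). Neither TRKA-TGF against TRKA (−0.72, 95% interval −1.66 to 0.23, adjusted p = 0.257) nor CD90 against p75 (0.38, −0.57 to 1.32, adjusted p = 0.774) passed.

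The 2 Plaur probes disagreed in part. By A_44_P468141 the level was 0.88, 1.71, 1.16 and 1.46 on the TRKA-TGF arrays, −0.74, 1.02, 1.92 and −0.13 on the TRKA arrays, −1.57, −6.77, −0.34 and −1.59 on the CD90 arrays and −1.71, −0.60, −0.81 and 0.01 on the p75 arrays. CD90 replicate 2 was lowest by both probes. In the fit with this probe, TRKA-TGF cells were 3.87 ± 1.08 above CD90 cells (adjusted p = 0.0256 in limma) and TRKA cells 3.08 ± 1.08 above CD90 cells (adjusted p = 0.0390). Against p75 cells neither TRKA-TGF (2.08, adjusted p = 0.259) nor TRKA (1.29, adjusted p = 0.377) was called, so those 2 calls rest on the brighter probe. The sign of TRKA-TGF against TRKA also turned, to 0.79 (adjusted p = 0.638), and that of CD90 against p75 to −1.79 (adjusted p = 0.447).

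Serpine2, the gene of glia-derived nexin, followed Plat. Its level was 2.29, 1.27, 1.39 and 0.87 on the TRKA-TGF arrays, 0.63, 1.84, 0.45 and −0.77 on the TRKA arrays, 3.42, 3.26, 3.402 and 2.84 on the CD90 arrays and 5.52, 5.54, 5.55 and 5.55 on the p75 arrays. The p75 arrays stood above all others, the CD90 arrays next, and the 2 TRKA populations overlapped at the bottom. Against p75 cells Serpine2 was 32.0-fold lower in TRKA (−5.00 ± 0.45, adjusted p = 1.47e-06 in limma), 17.0-fold lower in TRKA-TGF (−4.08 ± 0.45, adjusted p = 1.89e-05) and 4.94-fold lower in CD90 cells (−2.31 ± 0.45, adjusted p = 0.00477). Against CD90 cells it was 6.47-fold lower in TRKA (−2.69 ± 0.45, adjusted p = 0.00033) and 3.43-fold lower in TRKA-TGF cells (−1.78 ± 0.45, adjusted p = 0.0149), the last call ending without TRKA-TGF replicate 4 (−1.58, adjusted p = 0.0517). TRKA-TGF cells averaged 0.92 above TRKA cells (95% interval −0.05 to 1.88, adjusted p = 0.153). That difference was called under quantile normalization (1.23, adjusted p = 0.0207), with the percentile over probes measured on all arrays (1.68, adjusted p = 0.00869), with the authors' deposited values (1.18, adjusted p = 0.0276) and without TRKA replicate 2 (1.35, adjusted p = 0.0201). The 4 p75 values had an SD of 0.014, and no spot was flagged as saturated. Their processed signals were high, at 62699, 63283, 57954 and 59372. Whether the intensity scale was compressed at such signals was not tested. The glial markers, like Serpine2, were highest on the p75 arrays.

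Serpinf1, the gene of pigment epithelium-derived factor, had the widest scatter inside the TRKA populations of the 5 tested genes. Its level was −4.47, −1.88, −7.18 and −5.93 on the TRKA-TGF arrays and −0.29, 3.18, −6.95 and −5.59 on the TRKA arrays, with replicate 3 of each not well above background. It was 2.99, 3.76, 3.50 and 3.80 on the CD90 arrays and 2.41, 2.98, 2.72 and 2.84 on the p75 arrays. CD90 cells stood above p75 cells on each array, though by only 0.78 ± 1.75 on average (adjusted p = 0.906 in limma), and TRKA replicate 2 reached the level of both. That SE pools the spread of all 4 populations, and most of it came from outside this pair. The SD was 4.71 in TRKA and 2.28 in TRKA-TGF cells, against 0.37 in CD90 and 0.24 in p75 cells. CD90 against p75 was not called in any alternative (limma, adjusted p at least 0.122). TRKA-TGF cells were lower than CD90 cells (−8.37 ± 1.75, adjusted p = 0.00451) and lower than p75 cells (−7.60 ± 1.75, adjusted p = 0.00816). TRKA cells, at −5.93 ± 1.75 against CD90 (adjusted p = 0.0176) and −5.15 ± 1.75 against p75 (adjusted p = 0.0345), rested on single arrays. Without TRKA replicate 3 or 4 the values against CD90 were −4.41 (adjusted p = 0.0504) and −4.87 (adjusted p = 0.0528), and against p75 −3.64 (adjusted p = 0.101) and −4.09 (adjusted p = 0.0963). Leaving out p75 replicates 1, 2, 3 or 4 also ended the call against p75 (adjusted p = 0.0590, 0.0689, 0.0656 and 0.0654). So did array weights by group (adjusted p = 0.0527) and a fit of these populations alone (adjusted p = 0.123 against p75 and 0.0865 against CD90). TRKA-TGF against TRKA was not called (−2.45, 95% interval −6.22 to 1.33, adjusted p = 0.336).

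Serpinb2, the gene of plasminogen activator inhibitor 2, was not well above background on any of the 16 arrays. Its level lay between −7.92 and −7.31 in TRKA-TGF, −7.42 and −6.92 in TRKA, −8.50 and −7.02 in CD90 and −8.09 and −7.21 in p75 cells. These levels have no order, and the gene was not tested.

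Set against the background of all genes, the 5 tested members were called in the following numbers. In TRKA against p75 cells 2 were higher and 3 lower, where 35.7% of all genes were called, 18.8% higher and 16.9% lower. In TRKA against CD90 cells there were again 2 higher and 3 lower, with 34.9% of all genes called, 18.3% higher and 16.6% lower. TRKA-TGF cells had 2 higher and 3 lower against p75 cells (15.1% of all genes called, 7.97% higher and 7.15% lower). They had the same numbers against CD90 cells (14.9% called, 7.72% higher and 7.19% lower). In CD90 against p75 cells 2 were lower and 0 higher, with 7.25% of all genes called, 3.68% higher and 3.57% lower. In TRKA-TGF against TRKA cells 1 member was higher, Plat, where 26.4% of all genes were called, 13.5% higher and 12.9% lower. These comparisons share samples with one another.

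The comparison of both TRKA populations with p75 and CD90 cells had 1 population of each kind on each slide. Plau (3.77 ± 0.37, adjusted p = 3.39e-06 in limma) and Plaur (2.23 ± 0.31, adjusted p = 8.09e-05) were higher in the TRKA populations. Serpine2 (−3.39 ± 0.32, adjusted p = 2.06e-06), Serpinf1 (−6.76 ± 1.24, adjusted p = 0.000772) and Plat (−7.66 ± 0.17, adjusted p = 1.66e-12) were lower, the Plat value including TRKA arrays on which it was not well above background. All 5 tested members were thus called, where 34.0% of all genes were, 18.9% higher and 15.1% lower. With slide as a block the 5 calls held, and within each slide the direction of each was the same.

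**Figure D3:**
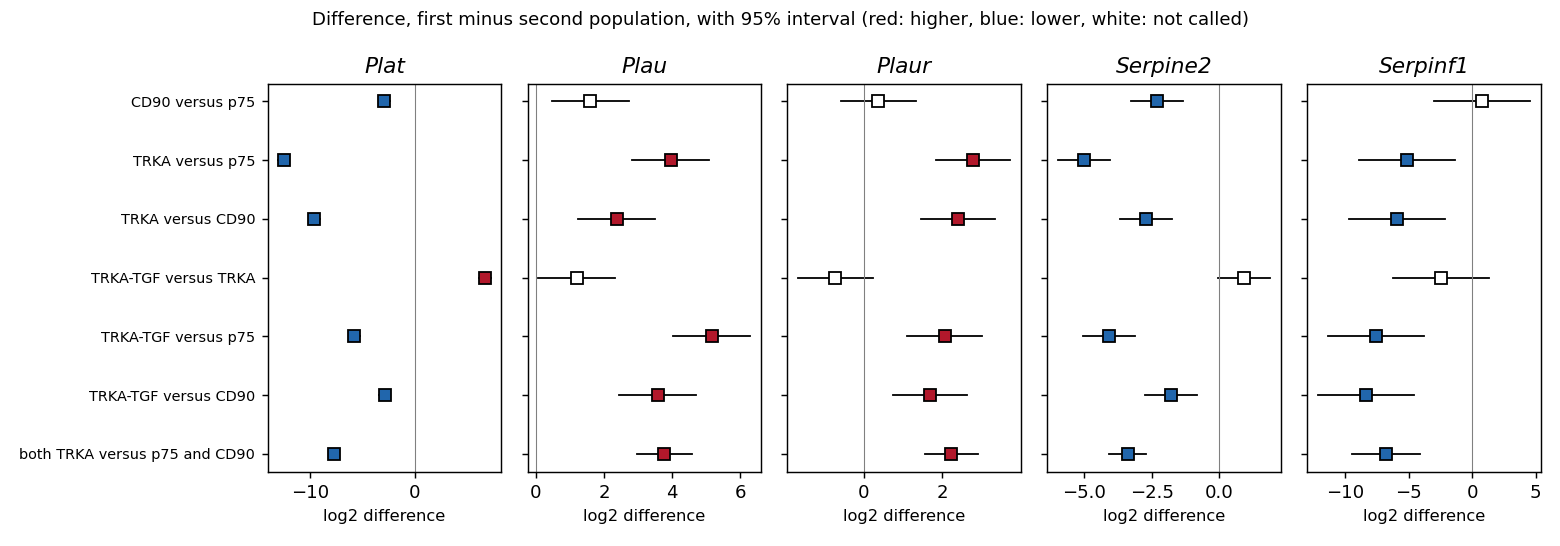
Difference of each tested gene in each comparison, first population minus second, in log2 units with its 95% interval from the limma fit to 16 arrays (4 per population). Red squares were higher, blue squares lower, and white squares not called. Plau and Plaur lie right of 0 and Plat and Serpine2 left of it where a TRKA population is set against p75 or CD90, and in TRKA-TGF against TRKA only Plat is called, a TRKA value below background making its size approximate.

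Over the 16 arrays the levels of Plat and Serpine2 correlated at r = 0.88 and those of Plau and Plaur at r = 0.83, while Plat and Plaur stood at r = −0.86 and Plau and Serpine2 at r = −0.85. The arrays fall into 4 populations of 4, so these values describe the differences between populations. The genes with a current symbol whose levels ran most like those of Plat were Sema4c (r = 0.985), Sgce (r = 0.981) and Hspa2 (r = 0.979). For Plau they were a gene listed as Igsf7 l1 (r = 0.969), Bcl2a1 (r = 0.956) and Ly49si1 (r = 0.955), and for Plaur the receptor chain gene Csf2ra (r = 0.963), C8h19orf38 (r = 0.957) and Arhgdib (r = 0.955). For Serpine2 they included Lgr4 (r = 0.958) and Fxyd1 (r = 0.944), and for Serpinf1 Tnfrsf12a (r = 0.971), Smtn (r = 0.921) and Ccdc136 (r = 0.91).

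The rest of the pathway was described by lists of genes. Of 11 genes for plasminogen, further activators and soluble inhibitors, 9 were tested. In TRKA-TGF against TRKA cells 5 of them were higher and 1 lower, where 13.5% of all genes were higher and 12.9% lower, and the median difference was 2.69 against 0.19 over all genes. Klkb1 and Serpini1 were among the higher ones, and both passed the filter only with the help of TRKA-TGF arrays, as did another gene of the list. Serpinf2 was another, and its call ended in 12 of 19 alternatives. The gene at the median was itself not called. The list's counts for TRKA-TGF cells are therefore no support for a change of the list as a whole. Klkb1 encodes plasma prekallikrein, a contact-system protease, and was measured on all 4 TRKA-TGF arrays (−1.61 ± 0.58, mean ± SD, n = 4) and on 0 of the other 12. Klkb1 passed the filter only through those 4 arrays. Its higher level there was thus fixed by the filter, and its adjusted p is no separate support. It was at least 31.3-fold higher in TRKA-TGF than in TRKA cells (adjusted p = 5.79e-09 in limma), at least 49.1-fold higher than in CD90 cells and at least 46.9-fold higher than in p75 cells. With normexp the log2 differences were 2.14, 2.66 and 2.90 in that order, below these bounds. Serpini1 encodes neuroserpin, an inhibitor of tissue-type plasminogen activator. It averaged −1.40 ± 0.72 in TRKA-TGF cells and was at least 36.1-fold higher than in TRKA cells (adjusted p = 0.00226), where it was well above background on 0 arrays, and 2.20 log2 units higher with normexp. In CD90 cells Serpini1 averaged −4.90 ± 3.17 and was well above background on 2 arrays, reaching −1.12 on replicate 2. TRKA-TGF against CD90 overlapped and was not called for this gene (adjusted p = 0.0515 in limma). Plg, the plasminogen gene, averaged −3.39 ± 0.54 in TRKA-TGF, −3.05 ± 1.23 in TRKA, −5.71 ± 1.29 in CD90 and −2.67 ± 1.87 in p75 cells. It was not called in any comparison except TRKA against CD90 (adjusted p = 0.0325), a call that ended in 11 of 19 alternatives (adjusted p up to 0.206). In the remaining comparisons the list had 4 higher and 1 lower in TRKA-TGF against p75 (15.1%), 3 and 2 in TRKA-TGF against CD90 (14.9%), 0 and 1 in TRKA against p75 (35.7%), 1 and 1 in TRKA against CD90 (34.9%), 1 and 0 in CD90 against p75 (7.25%) and 3 and 2 in both TRKA populations (34.0%), each beside the percentage of all genes called there.

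**Figure D4:**
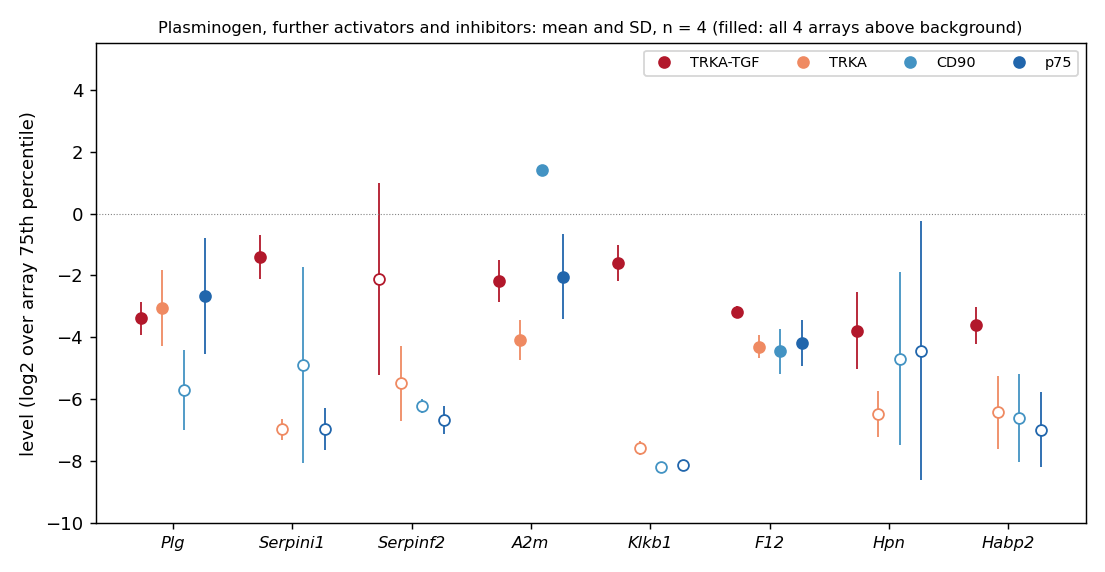
Level of 8 of the 9 tested genes for plasminogen, further activators and soluble inhibitors, as log2 over the array's 75th percentile, with mean and SD of 4 arrays per population. Filled points were well above background on all 4 arrays. Klkb1 and Serpini1, among other genes shown, have their highest mean in TRKA-TGF cells, with filled points there alone. Klkb1 passed the filter only through these arrays, and the open CD90 point of Serpini1 includes 2 arrays well above background.

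Of 16 genes for surface and clearance receptors of plasminogen and its activators, 15 were on the array and 14 tested. In TRKA against p75 cells 6 were higher and 2 lower (35.7% of all genes called, median difference 0.26 against −0.01 over all genes), and in TRKA-TGF against p75 cells 4 were higher and 1 lower (15.1% of all genes called, 0.35 against 0.14). The higher ones included Itgam and Itgb2, the 2 chains of the leukocyte integrin Mac-1, which binds the urokinase receptor. Itgb2 averaged 1.37 ± 0.03 in TRKA-TGF, 1.94 ± 0.44 in TRKA, −3.36 ± 1.26 in CD90 and −8.11 ± 0.23 in p75 cells, where it was on no array well above background, and was at least 547-fold higher in TRKA than in p75 cells (adjusted p = 2.91e-09 in limma; log2 difference 6.23 with normexp). Itgam, also among the myeloid markers, averaged 4.33 ± 0.17, 4.19 ± 0.52, 0.84 ± 0.12 and −2.21 ± 1.93 in that order. Mrc2, an endocytic collagen receptor that associates with the urokinase receptor, averaged −5.17 ± 2.64 in TRKA-TGF, −7.02 ± 0.63 in TRKA, 1.91 ± 0.55 in CD90 and −3.83 ± 2.25 in p75 cells. It was at least 342-fold lower in TRKA (adjusted p = 5.48e-05; log2 difference −5.49 with normexp) than in CD90 cells, and TRKA-TGF cells differed from CD90 cells by −7.08 (adjusted p = 0.000925), with 2 of 4 TRKA-TGF arrays well above background. Eno1, a glycolytic enzyme that binds plasminogen at the cell surface, fell by 1.85 ± 0.23 in TRKA-TGF against TRKA cells (adjusted p = 6.33e-05) and was 2.40 ± 0.23 higher in TRKA than in p75 cells (adjusted p = 2.90e-06). Under other scalings these differences shrank to as little as −0.96 and 1.4985. The list had 2 higher and 1 lower in TRKA-TGF against TRKA (26.4%), 5 and 6 in TRKA against CD90 (34.9%), 2 and 3 in TRKA-TGF against CD90 (14.9%), 4 and 0 in CD90 against p75 (7.25%) and 6 and 4 in both TRKA populations (34.0%), each beside the percentage of all genes called there. The 3 of 14 in TRKA-TGF against TRKA are close to the share over all genes.

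Of 22 other serpin genes 12 were tested. Serpinb1a, an intracellular inhibitor of neutrophil proteases, averaged 2.46 ± 0.31 in TRKA-TGF, 4.79 ± 0.25 in TRKA, 1.12 ± 0.70 in CD90 and 4.02 ± 0.32 in p75 cells. It fell by 2.33 ± 0.33 in TRKA-TGF against TRKA cells (adjusted p = 0.000175 in limma, −1.47 under quantile normalization) and by 2.90 ± 0.33 in CD90 against p75 cells (adjusted p = 5.97e-05). Serpinh1, a collagen chaperone, averaged −0.23 ± 0.74 in TRKA-TGF, −0.16 ± 3.90 in TRKA, 5.18 ± 0.11 in CD90 and 5.25 ± 0.18 in p75 cells, and TRKA-TGF cells were 5.48 ± 1.33 below p75 cells (adjusted p = 0.0113). The counts were 2 higher and 1 lower in TRKA-TGF against TRKA (26.4%), 0 and 2 in TRKA against p75 (35.7%), 2 and 4 in TRKA against CD90 (34.9%), 2 and 3 in TRKA-TGF against p75 (15.1%), 3 and 1 in TRKA-TGF against CD90 (14.9%), 0 and 1 in CD90 against p75 (7.25%) and 2 and 3 in both TRKA populations (34.0%), each beside the percentage of all genes called there. The 3 of 12 in TRKA-TGF against TRKA are close to the share over all genes. Serpind1, counted as higher there and against CD90, was well above background on 4 TRKA-TGF, 2 p75, 1 CD90 and 0 TRKA arrays. It passed the filter only with the help of the TRKA-TGF arrays, so its calls are no separate support. The call of Serpind1 against CD90 ended in 8 of 18 alternatives.

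Of 23 genes of coagulation and thrombin signalling 14 were tested. F3, which encodes tissue factor, the cell-bound starter of coagulation, averaged −6.37 ± 1.86 in TRKA-TGF and −6.05 ± 3.00 in TRKA cells, with 1 array each well above background, against 2.75 ± 0.21 in CD90 and 1.11 ± 0.14 in p75 cells. F2r, a thrombin receptor gene, averaged −6.10 ± 1.95 in TRKA-TGF (2 arrays well above background), −7.01 ± 0.85 in TRKA (0 arrays), 1.24 ± 0.33 in CD90 and −0.09 ± 0.31 in p75 cells. In the comparison of both TRKA populations, the difference was −8.14 ± 0.84 for F3 (adjusted p = 5.39e-06 in limma) and −7.13 ± 0.53 for F2r (adjusted p = 1.98e-07), against −5.21 and −4.20 with normexp. Procr, the endothelial protein C receptor, was at least 14.3-fold higher in TRKA-TGF than in TRKA cells (adjusted p = 0.000128), but by 1.47 log2 units with normexp. The list had 4 higher and 0 lower in TRKA-TGF against TRKA (26.4%), 2 and 4 in TRKA against p75 (35.7%), 1 and 5 in TRKA against CD90 (34.9%), 3 and 3 in TRKA-TGF against p75 (15.1%), 2 and 3 in TRKA-TGF against CD90 (14.9%), 0 and 0 in CD90 against p75 (7.25%) and 2 and 4 in both TRKA populations (34.0%), each beside the percentage of all genes called there. The list's shares in TRKA-TGF against TRKA and in TRKA against p75 or CD90 are close to those over all genes. F11 was counted as higher in TRKA-TGF against TRKA, p75 and CD90 cells. It was well above background on 4 TRKA-TGF, 1 p75, 0 CD90 and 0 TRKA arrays. F11 passed the filter only with the help of the TRKA-TGF arrays, so its calls are no separate support.

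Of 12 genes for proteins that the activators or plasmin cut or release, 9 were tested. Hgf, a growth factor secreted as a precursor that serine proteases cut, averaged −1.16 ± 0.69 in TRKA-TGF, −7.63 ± 0.17 in TRKA, −2.54 ± 1.01 in CD90 and −6.80 ± 1.84 in p75 cells. It was at least 42.6-fold higher in TRKA-TGF than in TRKA cells (adjusted p = 3.63e-05 in limma), but by 2.74 log2 units with normexp. Mmp12, macrophage elastase, averaged 3.92 ± 0.19 in TRKA-TGF, 2.94 ± 0.47 in TRKA, −1.37 ± 0.84 in CD90 and −4.42 ± 2.69 in p75 cells, and was 6.33 ± 0.68 higher in both TRKA populations than in p75 and CD90 cells (adjusted p = 8.18e-06). The counts were 2 higher and 0 lower in TRKA-TGF against TRKA (26.4%), 2 and 1 in TRKA against p75 (35.7%), 2 and 2 in TRKA against CD90 (34.9%), 3 and 1 in TRKA-TGF against p75 (15.1%), 2 and 1 in TRKA-TGF against CD90 (14.9%), 1 and 0 in CD90 against p75 (7.25%) and 2 and 2 in both TRKA populations (34.0%), each beside the percentage of all genes called there. Its shares in TRKA-TGF against TRKA and in TRKA against p75 are close to those over all genes.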

How the data were processed

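Expression was measured on 16 single-colour Agilent rat arrays, 4 per population. Per the labels' protocols, RNA was isolated on magnetic beads and amplified as cDNA by PCR before Cy3 labelling, a step that can distort the ratios of low-level RNAs. The deposited scanner tables hold spot intensities on a linear scale, and the processed signal is background-subtracted, per the file headers. Feature Extraction is given as version 10.7.3.1 by the file headers, whereas the submitters' processing notes name 10.5. Log2 values deposited by the authors as one matrix served as an alternative only. Its scale and centring are not stated, and set against quantile-normalized log2 signals centred on each probe's median its columns had slopes near 1 and r of at least 0.997, with column medians of −0.03 to 0.19. There is no read depth on arrays, and the number of arrays limits the precision.

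Control spots (4259 of each array, beside 58717 others) and spots with outlier flags were left out, and none was saturated. Spots of a probe were averaged. Levels are log2 processed signal minus the array's 75th percentile over probes. Probes were named by accession (18355) or symbol (3180) through RefSeq's GRCr8 gene list, and 8832 kept the file's name. A probe was kept when well above background on at least 4 of 16 arrays, and a gene was represented by its brightest kept probe. limma 3.58.1 in R 4.3.3 fitted 1 mean per population to all 16 arrays with empirical Bayes moderation. A gene was called at a Benjamini-Hochberg adjusted p under 0.05 over 20571 genes, 14110 with a current symbol. The fit was tested on simulated data. Errors beside differences are SE, errors beside levels are SD (n = 4).

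Groups and replicate numbers came from the sample titles. Arrays with equal numbers did not deviate together (r −0.03 to 0.04 over 24 pairs, 0 over 0.1), so the numbers were not used as a block in the main fit. Alternatives were other background corrections, scalings, filters, probe rules and weights, a replicate block, leaving out each array of the populations compared, and the second Plaur probe, which was added after its values were seen. The members and lists were chosen with earlier results of these data known. All members are named. Of each other list, at most 4 called genes per comparison with the largest difference could be named, and the 3 genes most alike were taken by Pearson r. Results on some named genes are not reported here.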

Additional observations from a re-analysis of the deposited data

How the results depend on the processing

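Of the member differences recomputed under the alternatives, 676 kept direction and side of the threshold, 11 passed it where they had not, 18 no longer passed it and 7 changed sign. No called member changed sign in any alternative, and all 7 sign changes were of uncalled Plaur differences. TRKA-TGF against TRKA stood at 0.0802 under quantile normalization, 0.0485 with the percentile over probes measured on all arrays, 0.0226 with the authors' deposited values, 0.0352 with the mean over both probes and 0.79 by the other probe. CD90 against p75 stood at −0.71 with the mean over both probes and −1.79 by the other probe. The members called in TRKA-TGF against TRKA numbered 3 under those 3 scalings and 1 to 2 when single arrays were left out, the gained genes being Plau and Serpine2. With array weights by group, which gave TRKA arrays a weight of 0.372 and TRKA-TGF arrays one of 1.74, 4909 genes were called in TRKA-TGF against p75 (3109 without weights) and 4623 in TRKA-TGF against CD90 (3069 without). With the replicate block, 0 of 35 member calls changed, and 5 members were again called in both TRKA populations against p75 and CD90. Of 114 calls of named list genes, 89 held in all alternatives, 25 were lost in some and 0 changed sign.

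The scaling of TRKA arrays moved all genes together. With the percentile over probes measured on all arrays, the median difference over all genes was −0.90 in TRKA against p75 (−0.01 in the report), −1.07 in TRKA against CD90 (−0.09), 0.96 in TRKA-TGF against TRKA (0.19) and −0.50 in both TRKA populations (0.05). The share of calls that were higher in these 4 comparisons was 20.7%, 18.7%, 82.9% and 24.6%, against 52.7%, 52.3%, 51.1% and 55.6% in the report. With normexp it was 66.9%, 62.7%, 38.8% and 65.1%, and with quantile normalization 62.2%, 61.3%, 39.2% and 62.0%. With the authors' values it was 39.9% in TRKA-TGF against TRKA. Measured values of genes near background in TRKA cells, such as Plat, are limited by signal over background there. The same holds for Serpinf1 on TRKA replicate 3, where it was not well above background.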
